A study of Mus musculus with 11 samples.

Results

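The genes described here are 29 genes of GABA signalling and of GABAergic interneurons, chosen by name from 39017 genes in the count table. Each of the 29 symbols matched a single gene, and each passed the filter on low counts in both tissues. The genes fall on an interneuron side of 13 genes (GABA synthesis and vesicle loading, and interneuron identity), a receptor side of 11 genes (GABA-A and GABA-B receptor subunits) and 5 others (uptake, scaffold and adhesion, and chloride transport).

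The libraries came from mice in which the microRNA-processing enzyme Dicer was deleted conditionally in the forebrain. Floxed Dicer mice were crossed with Camk2a-Cre mice, and the knockouts were Camk2a-Cre;Dicer flox/flox. The labels call the other animals control and do not give their alleles. All animals were 13 to 14 weeks old. Polyadenylated RNA of the neocortex was sequenced from 3 control males (D5129, D5134 and D5135) and 3 knockout males (D5130, D5132 and D5133), and RNA of hippocampal CA1 from 3 controls (the males D5134 and D5135 and a female, D5138) and 2 knockout males (D5130 and D5133). Each library is 1 tissue of 1 animal, and 4 of the 7 animals gave both tissues.

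GABA is the main inhibitory transmitter of the adult forebrain. Interneurons make it from glutamate with the enzymes encoded by Gad1 and Gad2 and load it into vesicles with the transporter encoded by Slc32a1. It opens GABA-A receptors, pentameric chloride channels assembled from alpha, beta, gamma or delta subunits, and it activates GABA-B receptors, which are dimers of the Gabbr1 and Gabbr2 products coupled to G proteins. The Camk2a promoter is active in excitatory neurons and little in interneurons, so interneurons are largely outside the Cre cells, while receptor subunits are made by both kinds of neuron. Whole tissue was sequenced, and fewer cells of a type cannot be told apart from less RNA per cell in these libraries.

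Dicer makes mature microRNAs, which pair through their seed, bases 2 to 8, with sites in 3′ UTRs. The 3′ UTRs of the 29 genes were therefore searched for 8-base sites, the complement of the seed followed by A, of 14 microRNAs abundant in brain. Sites of miR-124-3p were also planned, but the microRNA sequences used hold no entry of that name, so they were not searched. The microRNAs with sites in the largest number of these genes, and let-7a-5p for its site in Gabbr2, are shown from RefSeq (GRCm38.p6) with the seed in capitals.
miR-128-3p: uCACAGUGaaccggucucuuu
miR-26a-5p: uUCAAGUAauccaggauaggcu
miR-138-5p: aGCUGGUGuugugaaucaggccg
miR-181a-5p: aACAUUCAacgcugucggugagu
let-7a-5p: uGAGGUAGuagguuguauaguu

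An 8-base site of at least 1 of the 14 was present in 12 of the 29 genes (41.4%), against 41.1% of genes tested in the neocortex and 40.9% in CA1 that have an annotated 3′ UTR. The median 3′ UTR was 2081 bases in the 29 genes and 1183 bases over the genes tested in the neocortex. Sites of miR-128-3p were in 5 genes, Cnr1, Gabbr2, Gabrb1, Reln and Slc12a2, while 6.07% of the genes tested in the neocortex hold one. Sites of miR-26a-5p, of miR-138-5p and of miR-181a-5p were each in 3 genes. Gabrb1, with a 3′ UTR of 12228 bases, held sites of 5 of the microRNAs. The sites below were picked for display, after the values were seen, from Gad2 and from 4 genes described below, and are written as the strand of the transcript with the site in capitals.
Gabbr2, let-7a-5p: acccatcctgcCTACCTCAcag
Gabbr2, miR-128-3p: ggatagctttcCACTGTGAagc
Gad2, miR-26a-5p: attatttaaaaTACTTGAAaaa
Calb1, miR-181a-5p: atctagaaatgTGAATGTAaaa
Calb2, miR-9-5p: tcttcttgtttACCAAAGAaga
Reln, miR-128-3p: ccaccttcccaCACTGTGAgct

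In GRCm38 the Gabbr2 sites are at chr4:46663523-46663544 and chr4:46663463-46663484 on the minus strand. The Gad2 site is at chr2:22692950-22692971 and the Calb1 site at chr4:15907046-15907067, both on the plus strand. The Calb2 site is at chr8:110142575-110142596 and the Reln site at chr5:21885313-21885334, both on the minus strand. These are matches of letters and not measured binding. None of the 5 genes with a miR-128-3p site passed the threshold in edgeR. Their log2 differences between knockout and control were 0.11 (Cnr1), 0.18 (Gabbr2), 0.28 (Gabrb1), 0.16 (Reln) and 0.06 (Slc12a2) in the neocortex, and 0.11, 0.08, -0.10, 0.23 and -0.14 in the same order in CA1.

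Depth ranged from 43144097 to 58329441 gene reads per library in the neocortex and from 24806581 to 35684618 in CA1. Values are CPM, read counts per gene brought to one common library size after scaling by trimmed means, and tests are edgeR quasi-likelihood tests, called at a Benjamini-Hochberg adjusted p under 0.05 over all genes tested. Dicer1 itself was at 59.3 to 66.5 CPM in neocortical controls and 59.0 to 63.3 CPM in knockouts, and at 68.7 to 75.2 CPM and 71.6 to 73.3 CPM in CA1. Its count covers the whole gene and so does not check the deletion. One neocortical control, D5134, stood apart. Its summed reads of Ddx3y, Eif2s3y, Kdm5d and Uty, which lie on the Y chromosome, were 42.2% of the median of the neocortical libraries, which ranged from 91.6% to 113.0% otherwise. The neocortical libraries also fell into groups by their ERCC spike-in RNAs, with D5129, D5130 and D5132 on one side and D5133, D5134 and D5135 on the other. Each side holds controls and knockouts. Without D5134 edgeR called none of the 29 genes in the neocortex, where 2.03% of genes were called. The median of their log2 differences was then 0.05, against 0.09 with D5134. None was called by edgeR with the ERCC group as a term, where 1.13% of genes were. Within a group, D5129 is the only control or D5133 the only knockout, so only effect sizes are given. The median log2 difference of the 29 genes was 0.03 in the group of D5129 and 0.13 in that of D5133.

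None of the 29 genes was called by edgeR in either tissue. In the neocortex 0 of 29 passed, where 2.71% of 16971 genes did, and 8 had an unadjusted p under 0.05, where 18.0% of genes did (a description, with no test of the list). DESeq2 called 1 in the neocortex, Gabbr2, where it called 3.75% of 24186 genes. In CA1 0 of 29 passed, where 3.89% of 18274 genes did, and 10 had an unadjusted p under 0.05, where 17.3% of genes did. DESeq2 called 2 in CA1, Gabra5 and Gabrb2, where it called 3.42% of 26149 genes. The 95% interval of the fold change lay within 1.5-fold in both directions for 29 of 29 genes in the neocortex and for 26 of 29 in CA1, the exceptions being Calb2, Dlx2 and Dlx5. It lay within 1.25-fold for 20 genes in the neocortex and 18 in CA1. In the neocortex 23 of the 29 log2 differences were above 0, with a median of 0.09, while the median over all genes was 0.002 and 50.6% were above 0. In CA1 12 of 29 were above 0 and the median was -0.01. These signs are relative to the bulk of genes, since scaling to the ERCC spike-ins, which only the neocortical libraries carry, moved the median of all genes there to 1.06 and that of the 29 genes to 1.15.

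**Figure D1:**
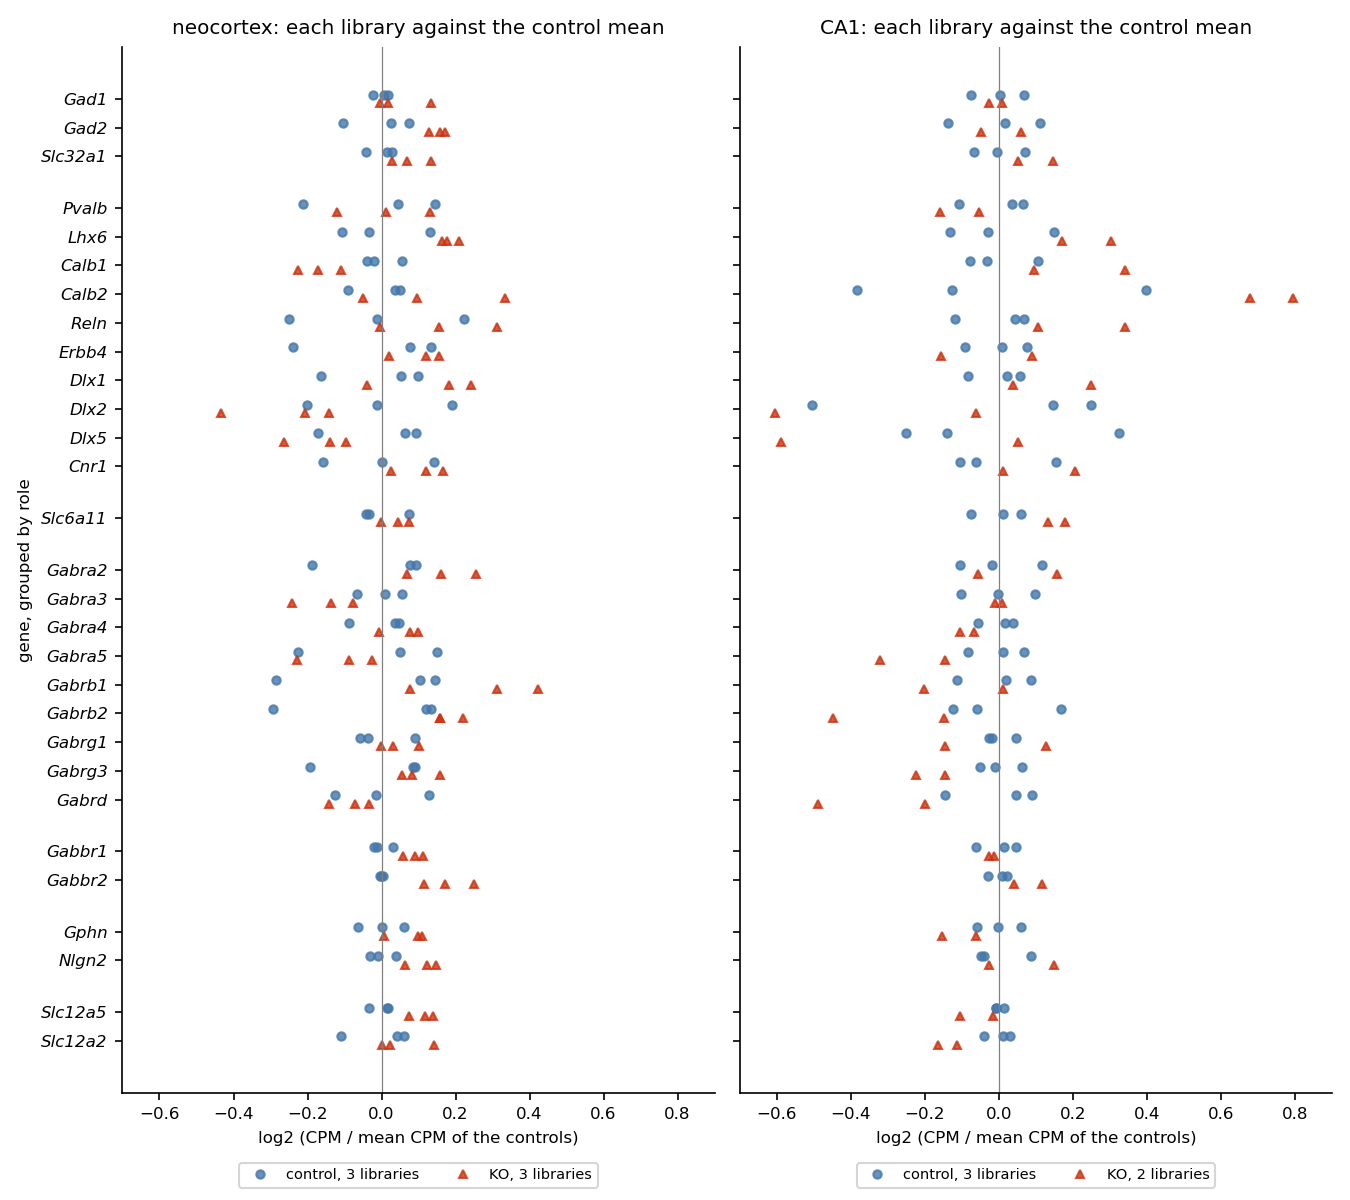
Values of the 29 genes in each library as log2 of CPM over the mean CPM of that tissue's controls, with circles for controls and triangles for knockouts. Control and knockout points overlap for most genes, and the widest separation is that of Calb2 in CA1, where the knockouts are at 49.1 and 53.2 CPM and the highest control at 40.4 CPM.

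Knockout and control libraries did not overlap for 10 of the 29 genes in the neocortex, 8 with the knockouts higher (11.6% of all genes) and 2 with the knockouts lower (12.4% of all genes). In CA1 they did not overlap for 5 genes with the knockouts higher (17.4% of all genes) and 8 with the knockouts lower (16.3% of all genes). The 8 higher genes in the neocortex were Gad2, Slc32a1, Lhx6, Gabrb2, Gabbr1, Gabbr2, Nlgn2 and Slc12a5. For Slc32a1 the separation lies below the printed digits, as the control D5134 and the knockout D5132 both round to 106 CPM. The 8 lower genes in CA1 were Gabra4, Gabra5, Gabrb2, Gabrg3, Gabrd, Gphn, Slc12a5 and Slc12a2. Gabrb2 and Slc12a5 were thus on opposite sides in the tissues, and edgeR called neither in either tissue.

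None of the 3 genes of GABA synthesis and vesicle loading was called in either tissue, and their log2 differences ran from -0.01 to 0.15. Gad1 encodes the larger glutamate decarboxylase. Its neocortical controls were at 506 (D5129), 492 (D5134) and 502 CPM (D5135), and its knockouts at 549 (D5130), 499 (D5132) and 506 CPM (D5133). The groups overlapped, and D5130 was the highest of the 6 libraries. The log2 difference was 0.05, with an SE of 0.05 and a 95% interval from -0.06 to 0.16 (edgeR adjusted p = 0.658). For CA1, Gad1 was measured at 356 (D5134), 393 (D5135) and 376 CPM (D5138) among controls, and both knockouts, at 377 (D5130) and 368 CPM (D5133), lay within that range. Values below are in the same order of animals. The log2 difference there was -0.01 (SE 0.06, 95% interval -0.13 to 0.11, edgeR adjusted p = 0.953).

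Gad2 encodes the smaller decarboxylase, which is concentrated at nerve terminals. In the neocortex it was at 176, 161 and 182 CPM in the controls and at 195, 193 and 189 CPM in the knockouts. The groups did not overlap, although the gap between the highest control and the lowest knockout was smaller than the spread among controls. A log2 difference of 0.15 (SE 0.06) did not pass the test (edgeR adjusted p = 0.171). In CA1 Gad2 was at 160, 171 and 144 CPM in controls and 153 and 165 CPM in knockouts, a log2 difference of 0.003 (SE 0.07, 95% interval -0.16 to 0.16).

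Slc32a1, the vesicular GABA transporter gene, was at 101, 106 and 105 CPM in neocortical controls and 109, 106 and 114 CPM in knockouts. That is a log2 difference of 0.08 (SE 0.05), with an edgeR adjusted p of 0.507. In CA1 it was at 76.8, 81.0 and 73.6 CPM in controls and 85.3 and 79.9 CPM in knockouts, with overlapping groups and a log2 difference of 0.10 (SE 0.07, edgeR adjusted p = 0.518). An antisense gene, Gm14205, overlaps an exon of Slc32a1, and the CA1 kit does not mark strand, so reads of the 2 cannot be told apart in CA1.

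Among interneuron identity genes, Pvalb marks fast-spiking basket and chandelier cells, whose calcium buffer it encodes. It was at 99.8, 107 and 83.5 CPM in neocortical controls and 97.6, 106 and 89.0 CPM in knockouts, and the groups covered the same range. The log2 difference was 0.01 (SE 0.09, 95% interval -0.20 to 0.22). In CA1 Pvalb was at 45.0, 39.9 and 44.1 CPM in controls and 41.4 and 38.5 CPM in knockouts, a log2 difference of -0.10 (SE 0.08, edgeR adjusted p = 0.589).

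Lhx6, a transcription factor of interneurons from the medial ganglionic eminence, was at 23.3 to 27.5 CPM in neocortical controls and at 28.1 CPM or more in all 3 knockouts. On the log2 scale that is 0.18 (SE 0.08, edgeR adjusted p = 0.234). In CA1 it was at 16.2 to 19.7 CPM in controls, and the knockouts were higher, with D5130 at 21.9 CPM, a log2 difference of 0.24 (SE 0.11, edgeR adjusted p = 0.272). The knockouts were above every control in both tissues, and neither difference passed.

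The calcium-binding protein genes Calb1 and Calb2 are used as interneuron markers, but Calb1 is also made by excitatory neurons, including part of the CA1 pyramidal layer, and Calb2 by hippocampal mossy cells and thalamic neurons. Calb1 was at 148, 158 and 150 CPM in neocortical controls and lower, at 130, 141 and 135 CPM, in all 3 knockouts (log2 difference -0.17, SE 0.05, edgeR adjusted p = 0.119). In CA1 it was at 141, 128 and 124 CPM in controls and 140 and 166 CPM in knockouts (0.22, SE 0.08, edgeR adjusted p = 0.161), and the higher mean there rested on D5133. Calb2 in CA1 was at 28.1, 40.4 and 23.5 CPM in controls and 49.1 and 53.2 CPM in knockouts (0.74, SE 0.24, edgeR adjusted p = 0.23). It was the largest difference among the 29 genes and also the one with the most variable controls. In the 5 fits without 1 library the difference ran from 0.57 to 0.99, and edgeR called it in 1 of them. That was the fit without the control D5135, the highest of the controls (0.99, edgeR adjusted p = 5.06e-05). In the neocortex Calb2 was at 10.8 to 11.9 CPM in controls and 11.1 to 14.5 CPM in knockouts.

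Reln, which encodes the secreted glycoprotein reelin, was at 56.6 to 64.3 CPM in CA1 controls and at 66.1 and 77.8 CPM in knockouts, a log2 difference of 0.23 (SE 0.08, edgeR adjusted p = 0.165). Its neocortical groups overlapped, at 67.4 to 93.6 CPM in controls and 80.0 to 99.6 CPM in knockouts. Antisense genes overlap exons of Reln (Gm10475) and Dlx1 (Dlx1as), and their reads cannot be told apart in CA1. The remaining identity genes were Erbb4, a neuregulin receptor of interneurons, Dlx1, Dlx2 and Dlx5, homeobox factors of their lineage, and Cnr1, the cannabinoid receptor of cholecystokinin interneurons that excitatory neurons also express. Their knockout and control libraries overlapped in both tissues, and their log2 differences ran from -0.29 (Dlx2 in CA1) to 0.15 (Dlx1 in CA1). Dlx2 and Dlx5 were the least abundant in reads, at 2.27 to 8.16 CPM in the 11 libraries, and their intervals were among the widest. Slc6a11, the GABA transporter of astrocytes, was at 162 to 178 CPM in CA1 controls and at 193 and 187 CPM in knockouts (log2 difference 0.15, SE 0.06, edgeR adjusted p = 0.197), and its neocortical groups overlapped.

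Of the 9 GABA-A subunit genes edgeR called 0 in either tissue, and DESeq2 called Gabra5 and Gabrb2 in CA1. In CA1 1 of the 9 had a log2 difference above 0, where 49.9% of all genes did, and the median was -0.10. In the neocortex 6 of 9 were above 0, where 50.6% of all genes were, and the median was 0.06. Gabra5, whose subunit forms extrasynaptic receptors that carry tonic inhibition in CA1 pyramidal cells, was at 190, 203 and 211 CPM in CA1 controls and at 161 and 182 CPM in the knockouts D5130 and D5133. Both knockouts were below every control, and the log2 difference of -0.23 (SE 0.07) had an edgeR adjusted p of 0.0822. Neocortical Gabra5 was at 40.7 to 52.8 CPM in controls and 40.6 to 46.8 CPM in knockouts. Gabra5 exons overlap the antisense gene Gm9962.

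Gabrb2, a beta subunit of synaptic receptors, was at 112, 137 and 117 CPM in CA1 controls and at 89.4 and 110 CPM in knockouts. That is -0.30 on the log2 scale (SE 0.10), at an edgeR adjusted p of 0.162, and D5130 was much the lower of the knockouts. The neocortical values of Gabrb2 were 111, 83.4 and 112 CPM in controls and 114, 114 and 119 CPM in knockouts (0.18, SE 0.10, edgeR adjusted p = 0.414). The mean difference there came from the control D5134, as the other controls were within 3 CPM of 2 of the knockouts.

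Gabrd encodes the delta subunit of extrasynaptic receptors, most abundant in the dentate gyrus and thalamus. In CA1 it was at 29.4, 33.6 and 34.6 CPM in controls and at 28.3 and 23.2 CPM in knockouts (log2 difference -0.34, SE 0.11, edgeR adjusted p = 0.0973), and in the neocortex the groups overlapped. Gabrg3, a minor gamma subunit, was at 28.3 to 30.6 CPM in CA1 controls and at 25.1 and 26.5 CPM in knockouts (-0.19, SE 0.09, edgeR adjusted p = 0.286). Gabra3, an alpha subunit, was lower in the neocortex, at 148 to 161 CPM in controls and 131 to 147 CPM in knockouts (-0.15, SE 0.06, edgeR adjusted p = 0.19), and was unresolved from 0 in CA1 (-0.001, 95% interval -0.16 to 0.15). Gabrb1, a beta subunit found in neurons and astrocytes, was at 13.3 to 17.9 CPM in neocortical controls and 17.1 to 21.7 CPM in knockouts (0.28, SE 0.12, edgeR adjusted p = 0.265). Exons of Gabrb1 and Gabra4 overlap on opposite strands, and their reads may be shared in CA1. The other alpha and gamma subunits, Gabra2, Gabra4 and Gabrg1, had log2 differences from -0.09 to 0.16.

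**Figure D2:**
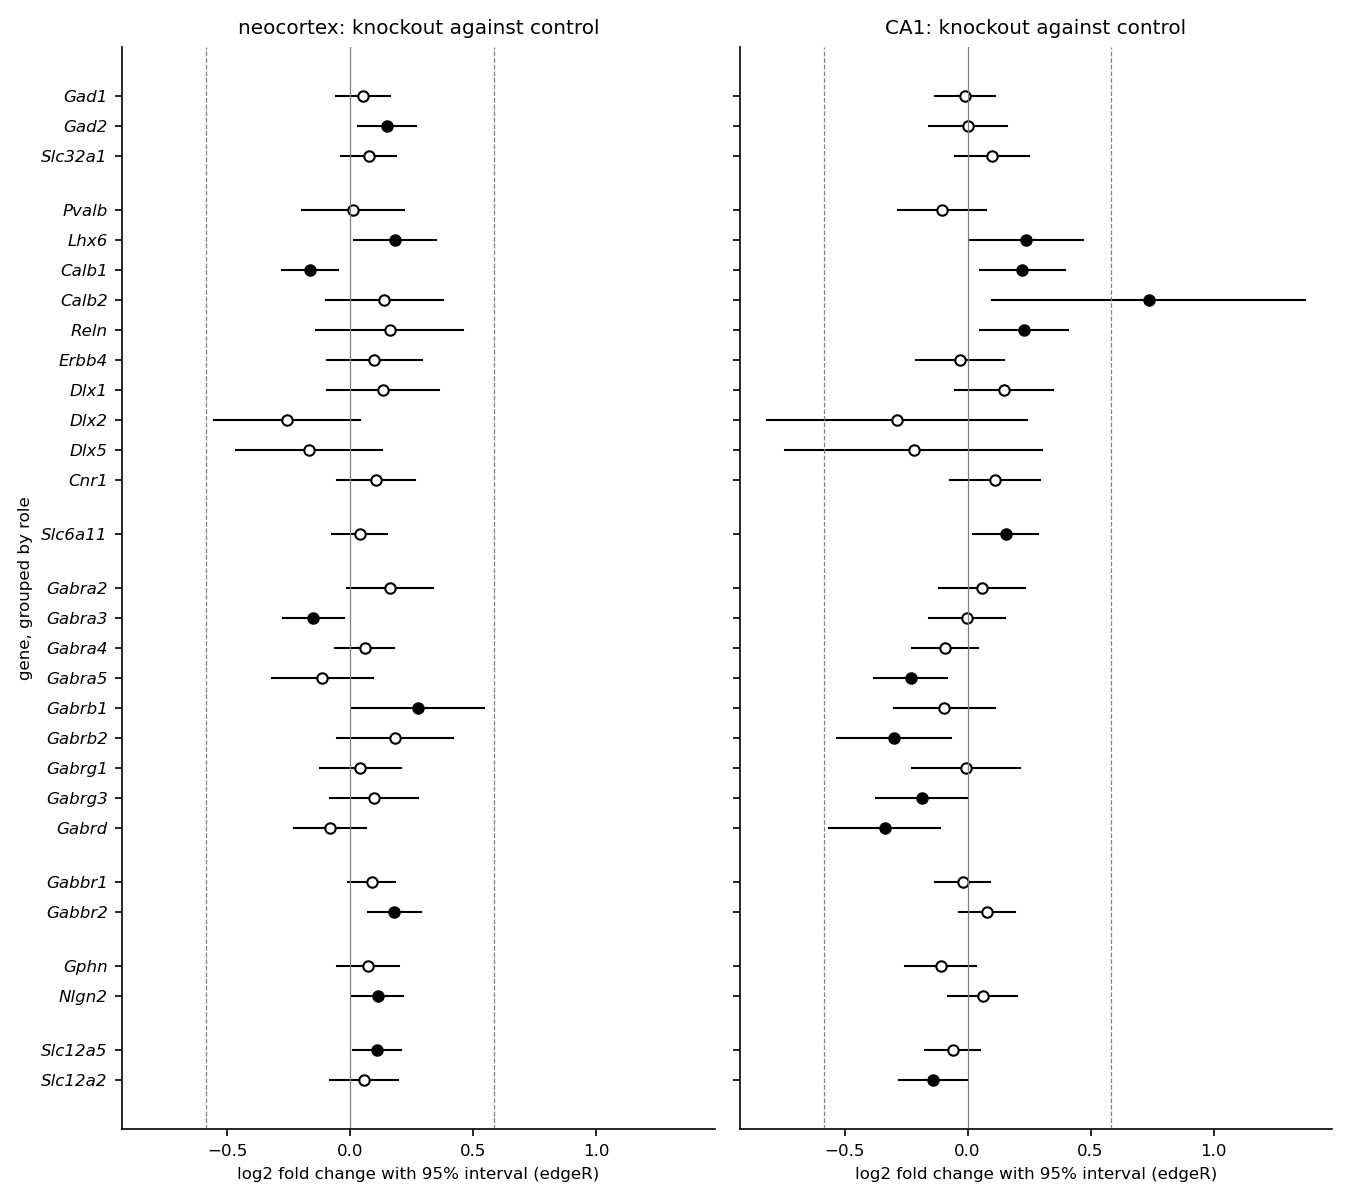
Log2 fold change of each gene, knockout against control, with its 95% interval from edgeR, in the neocortex and CA1. Filled points have an unadjusted p under 0.05 (8 and 10 genes), dashed lines mark 1.5-fold, and only Calb2, Dlx2 and Dlx5 in CA1 have intervals that cross them.

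The GABA-B receptor genes were abundant and their estimates precise. Gabbr2, whose subunit couples the receptor to G proteins, was at 453, 450 and 451 CPM in neocortical controls and at 489, 537 and 508 CPM in knockouts. Controls differed by no more than 3 CPM and all knockouts were above them. Its log2 difference of 0.18 (SE 0.05, 95% interval 0.07 to 0.29) had the smallest p of the 29 genes in the neocortex, at an edgeR adjusted p of 0.0738, and DESeq2 gave an adjusted p of 0.0285. In CA1 it was at 371 to 385 CPM in controls and at 411 and 390 CPM in knockouts (0.08, SE 0.05, edgeR adjusted p = 0.485). Gabbr1, whose subunit binds GABA, was at 849 to 879 CPM in neocortical controls and 895 to 929 CPM in knockouts (0.09, SE 0.05, edgeR adjusted p = 0.342) and overlapped in CA1.

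At the postsynaptic side, Gphn encodes gephyrin, the scaffold that holds GABA-A and glycine receptors at inhibitory synapses, and Nlgn2 the adhesion protein neuroligin 2 of the same synapses. Gphn had a log2 difference of 0.07 (SE 0.06) in the neocortex and -0.11 (SE 0.07) in CA1. Nlgn2 was at 328 to 344 CPM in neocortical controls and 350 to 371 CPM in knockouts (0.11, SE 0.05, edgeR adjusted p = 0.239), and overlapped in CA1 (0.06, SE 0.07). The chloride transporters set the direction of current through GABA-A receptors. Slc12a5, the neuronal chloride exporter KCC2, was at 771 to 798 CPM in neocortical controls and 830 to 868 CPM in knockouts (0.11, SE 0.05, edgeR adjusted p = 0.223), against 632 to 641 and 590 to 628 CPM in CA1 (-0.06, SE 0.05). Slc12a2, the importer NKCC1, was at 86.6 to 90.9 CPM in CA1 controls and at 79.4 and 82.3 CPM in knockouts (-0.14, SE 0.06, edgeR adjusted p = 0.28).

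The median log2 difference of the interneuron side was then set against that of the receptor subunits. In the neocortex the medians were 0.10 and 0.09, a gap of 0.01. In single libraries that gap, each library against the mean of the controls, was -0.04 (D5129), 0.06 (D5134) and 0.02 (D5135) for controls, against 0.06 (D5130), -0.06 (D5132) and 0.002 (D5133) for knockouts. The groups covered the same range. In CA1 the medians were 0.10 for the interneuron side and -0.09 for the receptor subunits, a gap of 0.19. The gap per library was 0.03 (D5134), 0.03 (D5135) and -0.09 (D5138) for CA1 controls, against 0.20 (D5130) and 0.07 (D5133) for knockouts, so that both knockouts were above the controls. No p is given for these medians, since the genes were chosen with earlier results known. The CA1 gap was 0.07 without the knockout D5130. It was 0.10 with only Gad1, Gad2 and Slc32a1 on the interneuron side and 0.09 without Calb1, Cnr1 and Reln, which excitatory neurons or other cells also express.

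**Figure D3:**
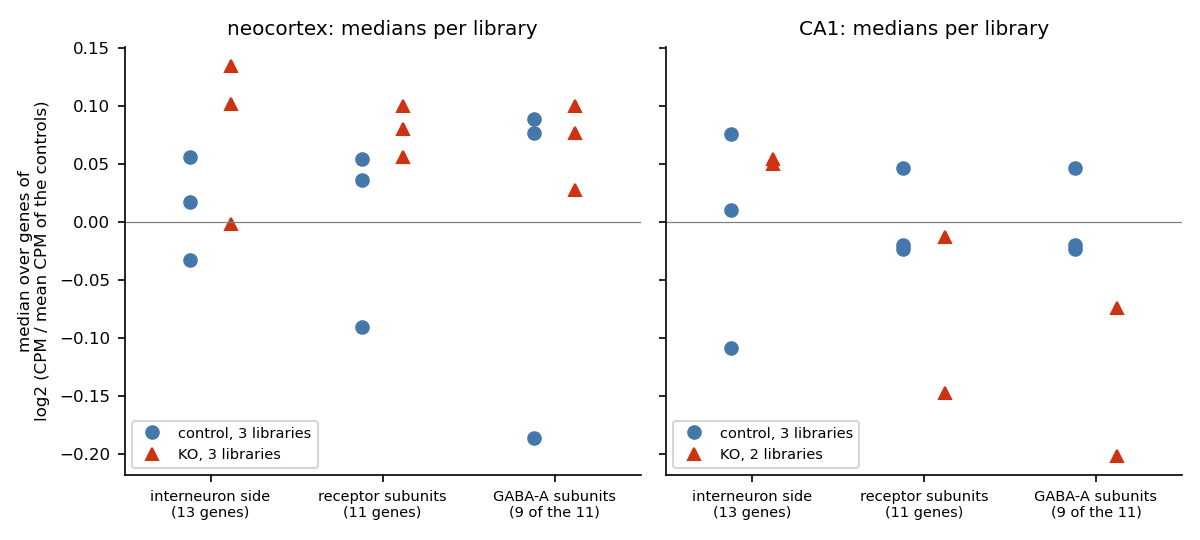
Median over genes of log2 CPM relative to the control mean, per library, for the interneuron side, all receptor subunits and the GABA-A subunits alone. In CA1 the GABA-A medians of the knockouts, -0.20 and -0.07, are below the controls, while in the neocortex the low control at -0.19 is D5134.

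The tissue difference of the knockout effect, CA1 minus neocortex, was tested over all 11 libraries. None of the 29 genes was called by edgeR, where 0.0935% of 19256 genes were, and 7 had an unadjusted p under 0.05, where 9.51% of genes did. DESeq2 called none. Calb1 had the smallest p (0.39, SE 0.10, edgeR adjusted p = 0.172), being lower in neocortical knockouts and higher in those of CA1. Calb2 was also above 0 (0.60, SE 0.25), while Gabrb2 (-0.48, SE 0.18, edgeR adjusted p = 0.418), Gabrb1 (-0.37, SE 0.17), Gabrg3 (-0.28, SE 0.12), Slc12a5 (-0.17, SE 0.07) and Slc12a2 (-0.20, SE 0.09) were below 0. Of the 9 GABA-A subunits 8 were below 0, with a median of -0.15, against 0.007 over all genes. With the animal as a replicate block, which the 4 shared animals allow, 1 of the 29 genes was called, Gabrb2 (-0.60, edgeR adjusted p = 0.011). That fit called 0.592% of all genes.

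**Figure D4:**
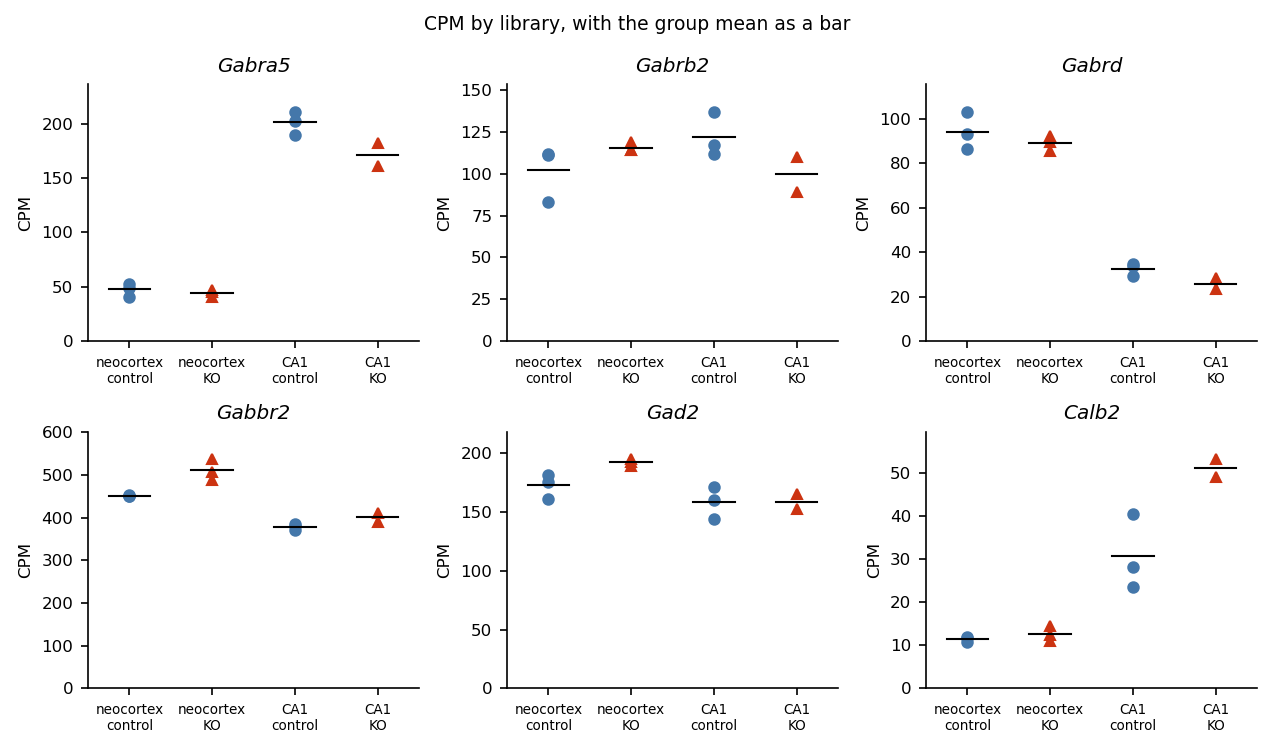
CPM of 6 genes in every library, circles for controls, triangles for knockouts and a bar for the group mean. In CA1 Gabra5, Gabrb2 and Gabrd are lower in both knockouts than in every control and Calb2 and Gabbr2 are higher, while in the neocortex Gabra5, Gabrd and Calb2 overlap and Gabbr2, Gabrb2 and Gad2 are higher in all knockouts.

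Further genes of the pathway, none of them among the 29, were taken from lists of genes by role. Over all genes, edgeR called 2.71% in the neocortex and 3.89% in CA1. An unadjusted p under 0.05 was reached by 18.0% and 17.3%. These shares stand beside the counts of every list below. Of 10 further GABA-A and GABA-rho subunit genes 5 were tested in each tissue. In the neocortex 0 passed in edgeR or DESeq2 and 0 had an unadjusted p under 0.05.

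Of 18 genes of the inhibitory postsynapse, 1 rose and 1 fell in the neocortex. Shisa7, an auxiliary subunit of GABA-A receptors, was at 188, 190 and 190 CPM in controls and rose to 225, 244 and 249 CPM in knockouts (0.34, SE 0.05, edgeR adjusted p = 0.00784). It was not called without the knockout D5133 (0.31, edgeR adjusted p = 0.0786), a fit that called 0.111% of all genes. Hap1, whose product takes part in the transport of GABA-A receptors, fell in the neocortex (-0.25, SE 0.06, edgeR adjusted p = 0.0436) and rose in CA1 (0.33, SE 0.07, edgeR adjusted p = 0.0203). The neocortical call was kept without 1 of 6 libraries only, the control D5134, with adjusted p from 0.0397 to 0.201. The CA1 call was lost without D5130 (0.23, adjusted p = 0.176) or D5138 (0.28, adjusted p = 0.119).

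Of 8 GABA-B partners 0 passed in the neocortex in edgeR or DESeq2, with 2 at an unadjusted p under 0.05, and 1 fell in CA1, Kctd16, an auxiliary subunit of the receptor (-0.65, SE 0.15, edgeR adjusted p = 0.0293). It was at 7.34 to 8.59 CPM in controls and 5.32 and 4.86 CPM in knockouts, and kept its call without 1 of 5 libraries, the control D5134 (adjusted p from 0.0278 to 0.172). Of 8 chloride regulators Wnk1, a kinase upstream of KCC2 and NKCC1, rose in the neocortex. It was at 231, 207 and 215 CPM in controls and 260, 281 and 296 CPM in knockouts (0.36, SE 0.06, edgeR adjusted p = 0.0119). The call was lost without D5133 (edgeR adjusted p = 0.0973), where 0.111% of all genes were called. In CA1 1 rose, the potassium-chloride cotransporter gene Slc12a7, at 4.31, 4.40 and 4.43 CPM in controls and 8.97 and 7.37 CPM in knockouts (0.90, SE 0.15, edgeR adjusted p = 0.00534, lost without D5130 at 0.0745). Of 9 genes of GABA metabolism and transport 0 of 9 tested in the neocortex passed in edgeR. DESeq2 called 1 there, the glutamine transporter gene Slc38a1, and 2 had an unadjusted edgeR p under 0.05. Of the list, 1 of 8 tested in CA1 rose, Slc38a2, another glutamine transporter gene (0.27, SE 0.07, edgeR adjusted p = 0.0458). That call was kept without 1 of 5 libraries, the control D5134 (adjusted p from 0.0282 to 0.224).

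Of 32 other interneuron markers 31 were tested in each tissue. In the neocortex 1 rose, the noncoding RNA gene Dlx6os1 (0.34, SE 0.08, edgeR adjusted p = 0.0418), which lost the call without any 1 of the 6 libraries (adjusted p from 0.0537 to 0.216), and edgeR called 0 lower. DESeq2 called 2 higher in the neocortex, Dlx6os1 and Crh, and 2 lower, Cck and Lamp5. In CA1 Nos1, the neuronal nitric oxide synthase gene, rose (0.51, SE 0.08, edgeR adjusted p = 0.00311), and the call was lost without D5133 (0.42, adjusted p = 0.0536). In CA1 3 fell, Syt2 (-0.49, SE 0.11, edgeR adjusted p = 0.0216), a synaptotagmin of fast-spiking terminals, Crhbp (-0.44, SE 0.10, edgeR adjusted p = 0.0254), which binds corticotropin-releasing hormone, and Cck (-0.31, SE 0.08, edgeR adjusted p = 0.0385), a neuropeptide that pyramidal cells also make. Without D5133 or D5138 Syt2 (adjusted p = 0.173 and 0.108), Crhbp (0.161 and 0.155) and Cck (0.252 and 0.177) were not called. Crhbp was also lost without D5130 (0.0811) and Cck without the control D5134 (0.0671).

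Markers of other cell types moved in the same libraries. In the neocortex the summed CPM of 12 markers of striatal projection neurons was 372 to 437 in controls and 299 to 332 in knockouts, and 4 of the 12 fell, with Penk, Scn4b and Ppp1r1b among them. Of 8 markers of excitatory neurons 2 fell there, Nrgn and Itpka, with sums of 5670 to 5740 CPM in controls and 4930 to 5040 CPM in knockouts. Astrocyte markers in the neocortex summed to 2300 to 2400 CPM in controls and 2430 to 2720 CPM in knockouts, and edgeR called 0 of 8, with 3 at an unadjusted p under 0.05. Gfap was at 98.2, 107 and 128 CPM in those controls and 173, 232 and 258 CPM in those knockouts (0.99, SE 0.18, edgeR adjusted p = 0.062), and DESeq2 called it. Of 8 microglial markers 1 rose there, Tyrobp (0.64, SE 0.10, edgeR adjusted p = 0.00874), and the sums overlapped at 436 to 457 and 443 to 482 CPM. Of the 8 log2 differences 4 were below 0, including that of P2ry12 (-0.35, SE 0.10, edgeR adjusted p = 0.0909). DESeq2 called C1qa and Tyrobp higher and P2ry12 lower. In CA1 the sum of 8 CA1 pyramidal cell markers was 638 to 686 CPM in controls and 463 to 506 CPM in knockouts. Of these, 3 fell (Wfs1, Pou3f1 and Man1a). Dcn, which is also on the meningeal list, was the only 1 with a log2 difference above 0 (1.01, SE 0.435, edgeR adjusted p = 0.391). Of 8 markers of excitatory neurons 2 fell in CA1. Of 8 meningeal markers 4 rose in CA1, and their sum was 101 to 112 CPM in controls and 222 to 264 CPM in knockouts. Of 8 microglial markers 4 rose, with sums of 309 to 327 CPM and 386 to 442 CPM. Of 8 astrocyte markers 2 rose, Gfap and Aqp4, with sums of 2400 to 2500 CPM and 2930 to 3160 CPM. Of 8 thalamic markers, which include Calb2, 1 fell in CA1, Slc17a6, and the sums overlapped at 115 to 128 and 119 to 123 CPM. These sums hold opposite moves, with 4 of the 8 log2 differences above 0 and 4 below. From controls to knockouts the mean of Slc17a6 went from 50.3 to 28.3 CPM and that of Calb2 from 30.7 to 51.1 CPM. Of 8 markers of dentate gyrus and CA3 edgeR called 0 in CA1, although 1 had an unadjusted p under 0.05, and DESeq2 called 1. No list summed to 0 in any library. Some lists share genes, and the part of these differences in the values of the 29 genes was not tested.

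Levels per length were set side by side in the controls as RPKM, the CPM value per kilobase of exon. Gabbr1 was the highest of the 29 in both tissues, at 111 ± 2.14 RPKM (SD, n = 3) in the neocortex and 106 ± 4.06 RPKM in CA1, followed by Slc12a5 at 106 ± 2.09 and 85.3 ± 0.68 RPKM. In the neocortex Pvalb (92.9 ± 11.5 RPKM), Gabbr2 (67.5 ± 0.24) and Gad1 (65.4 ± 0.93) came next. In CA1 the third was Gabra5 (67.7 ± 3.54 RPKM), which was at 16.0 ± 2.09 RPKM in the neocortex. Gabrd, Pvalb and Gabra3 were the genes with the lowest ratio of CA1 to neocortex (0.35, 0.45 and 0.49), and Gabra5 and Calb2 those with the highest (4.23 and 2.67). Gabrb1 was the lowest in the neocortex at 1.17 ± 0.18 RPKM, and Dlx2 and Dlx5 were the lowest in CA1 at 1.48 ± 0.39 and 1.51 ± 0.33 RPKM. The tissues were prepared with different kits, one marking strand and one not, so these ratios were not tested.

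**Figure D5:**
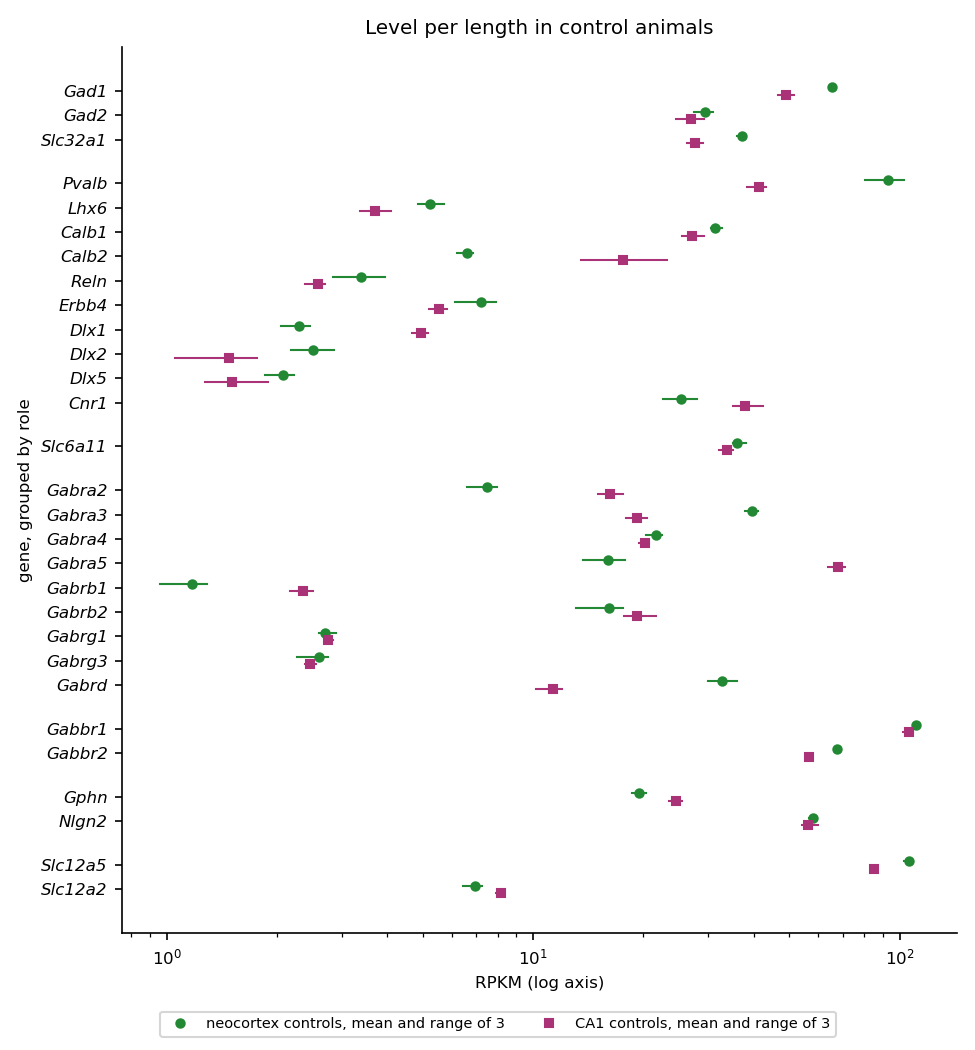
Level of each gene per length in RPKM on a log axis, with the mean as a point and the lowest and highest of 3 control libraries as a line, for the neocortex and CA1. The genes span from 1.17 RPKM (Gabrb1 in the neocortex) to 111 RPKM (Gabbr1 in the neocortex), and Gabra5 is the gene furthest to the CA1 side.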

How the data were processed

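Deposited read counts per Ensembl mouse gene of 11 polyadenylated RNA libraries were used as the authors left them. FastQC, GSNAP, bedtools, SAMtools and the build GRCm38 are named in the submitters' processing notes, with versions and strand settings not given in the sources used here. Neocortical libraries used a stranded kit with ERCC spike-ins and CA1 libraries an unstranded kit, per the labels' protocols. Symbols came from GENCODE M21 on GRCm38 and matched 37607 of 39017 identifiers (96.4%). The 92 ERCC entries stayed out of library sizes.

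Each tissue was fitted alone with edgeR 4.0.16 (R 4.3.3; TMM scaling, filterByExpr, robust quasi-likelihood fit), with Benjamini-Hochberg adjustment over all genes tested. The tissue difference was fitted over all 11 libraries. Standard errors are the log2 fold change over the square root of F. DESeq2 1.42.0 was an alternative, run without the filter on low counts. Its shares are over all genes with reads, and a gene with no adjusted p there was counted as not called. P-values cover the spread between animals, which the labels name, and reads without molecular identifiers give counting error only. All 29 genes are accounted for. Those called, those at an unadjusted p under 0.05 and Gad1, Gad2, Slc32a1 and Pvalb are named with values. Calls of other pathway genes are named, apart from some that are not reported here. The 29 genes and the lists were chosen with earlier results of these data known.

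In all, 4 animals gave both tissues. Deviations of the same animal correlated at r = 0.18, 0.14, 0.216 and 0.143 in the tissues, so a fit with the animal as a block was made for the tissue difference. ERCC groups are from the composition of 31 spike-in RNAs with 20 or more reads in each library (r at least 0.86 within a group and at most -0.897 between groups) and were chosen after seeing the data. The 3′ UTR of a gene is the longest of its protein-coding transcripts in GENCODE M21, and seeds came from RefSeq.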

Additional observations from a re-analysis of the deposited data

Results flagged for a closer look

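Shisa7 and Hap1, 2 genes of the inhibitory postsynapse that are not among the 29, differed between the tissues in their knockout effect by the test of the difference itself (CA1 minus neocortex, edgeR over 11 libraries). For Shisa7 the difference was -0.39 on the log2 scale (SE 0.07, edgeR adjusted p = 0.0499). It was at 280 to 286 CPM in CA1 controls and 269 and 278 CPM in CA1 knockouts, and 188 to 190 against 225 to 249 CPM in the neocortex. The call was kept without 1 of the 11 libraries only, the neocortical control D5134, with differences from -0.46 to -0.38 and adjusted p from 0.0453 to 0.116. With the animal as a replicate block the adjusted p was 0.0532.

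For Hap1 the difference was 0.58 (SE 0.10, edgeR adjusted p = 0.0313). Hap1 was at 99.8, 101 and 112 CPM in neocortical controls and 90.0, 84.4 and 88.3 CPM in knockouts, and at 181, 187 and 165 CPM in CA1 controls and 239 and 209 CPM in CA1 knockouts. Knockouts were lower than every control in the neocortex and higher than every control in CA1. The call was kept in 4 of 11 fits without 1 library, with differences from 0.45 to 0.66 and adjusted p from 0.0323 to 0.152.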

How the results depend on the processing

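In the neocortex members called stayed at 0 with RLE scaling, with no filter on low counts and without any 1 library. They also stayed at 0 with ERCC scaling and with the ERCC group as a term. Of all genes, 0.0236% were called with ERCC scaling. Without 1 library the share ran from 0.111% (D5133) to 2.49% (D5135). A 0 in the fits that called few genes says little. The count rose to 1 with DESeq2 and to 5 (Erbb4, Gabra2, Gabrb1, Gabrb2 and Gad2) with the ERCC share of a library as a term. DESeq2 called 3.75% of the 24186 genes with reads, and the ERCC share term 7.11% of 16971 genes, against 2.71% of 16971 in the main fit. With that term the knockouts are compared with the control D5134 alone, since the controls D5129 and D5135 form the other set. In CA1 the count was 4 (Calb1, Gabra5, Gabrb2 and Gabrd) with no filter on low counts, 2 with DESeq2 and 0 to 1 when 1 library was left out. For the tissue difference it was 1 with no filter (Calb1) and 1 with the animal as a replicate block (Gabrb2). It was 0 without any 1 of the neocortical libraries or CA1 controls. Those fits called 0.00527% to 0.161% of all genes, so a 0 among the 29 says little there. In CA1 5.61% of the 26149 genes with reads were called with no filter and 3.42% with DESeq2, against 3.89% of 18274 genes in the main fit. For the tissue difference 0.869% of 27265 genes were called with no filter and 0.592% of 19256 with the block, against 0.0935% of 19256 in the main fit. Only the count of the tissue difference can take the block, and the block moved no other call of the 29 genes.

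The neocortical gap between the interneuron and receptor medians was -0.043 with the ERCC share term, -0.07 within the ERCC group of D5133, D5134 and D5135, and -0.008 to 0.053 without 1 library. The CA1 gap was 0.067 to 0.194 without 1 library, 0.095 with only Gad1, Gad2 and Slc32a1, and 0.088 without Calb1, Cnr1 and Reln.

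Pvalb, near 0 in the neocortex, turned to -0.132 (ERCC share term), -0.035 (ERCC group as a term) and -0.089 (the group of D5133, D5134 and D5135 alone), and ranged from -0.084 to 0.087 without 1 library. With ERCC scaling Calb1 was at 0.87, Gabra3 at 0.90 and Hap1 at 0.81 in the neocortex, all below the median of all genes there. In CA1 Gad1 ranged from -0.048 to 0.025 without 1 library. Gad2 in CA1 was at -0.002 with DESeq2, -0.0002 with RLE scaling, -0.0002 with no filter and -0.063 to 0.063 without 1 library. Values under each alternative were listed for members at an unadjusted p under 0.05, for Gad1, Gad2, Slc32a1 and Pvalb, and for called pathway genes. Among the other members the sign changed in 9 of 234 fits in the neocortex, 11 of 120 in CA1 and 44 of 330 of the tissue difference, ERCC scaling left out.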
